A study of Mus musculus with 12 samples.

Results

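Mcam, Vcam1, Icam1, Ncam1, Alcam, Cadm1, Cdh2, Cdh11 and Cdh13 encode surface proteins that hold cells to one another or to leukocytes and neurons. They were chosen by the measured Mcam counts: Mcam was high in TGF-β-treated cells with a scrambled siRNA and low in TGF-β-treated cells with an siRNA against histone H1.0, and the other 8 adhesion genes were set beside it, which gives 9 of 18028 genes tested. The comparisons behind that choice are TGF-β against vehicle in scramble cells and H1.0 siRNA against scramble in TGF-β-treated cells, so values in them are a description with no test. RNA-seq was done on primary fibroblasts from hearts of adult female and male wild-type C57BL/6J mice, with 3 libraries in each of 4 groups: TGF-β + H1.0 siRNA, TGF-β + scramble, vehicle + H1.0 siRNA and vehicle + scramble. TGF-β, a cytokine that turns fibroblasts into contractile, matrix-producing cells, was used at 10 ng/ml. All 4 groups went through transfection and low serum before treatment, so no group is an untransfected cell, and the siRNA lowers H1.0 rather than deleting it. The question was which adhesion genes moved with TGF-β, with loss of H1.0, or with both.

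Adhesion molecules fall into a few families. Mcam, Vcam1, Icam1, Ncam1, Alcam and Cadm1 carry immunoglobulin-like domains outside the cell. Vcam1 and Icam1 are ligands of leukocyte integrins and are classical targets of NF-κB. Cdh2 (N-cadherin) and Cdh11 (OB-cadherin) are calcium-dependent cadherins that bind β-catenin and α-catenin at cell-cell junctions, and Cdh13 (T-cadherin) lacks a cytoplasmic part and is held in the membrane by a glycosylphosphatidylinositol (GPI) anchor. In the heart, Mcam is best known from endothelial and mural cells, and Cdh2 and Cdh11 from myocytes and activated fibroblasts.

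H1f0, which encodes H1.0, averaged 743.0 ± 202.3 normalized counts in TGF-β + H1.0 siRNA and 2853 ± 60.6 in TGF-β + scramble cells (SD, n = 3 each). In vehicle it had 980.1, 1075 and 600.4 with the siRNA and 2515, 3033 and 2648 with the scramble. A normalized count is the estimated read count of a gene scaled to the mean library. Libraries held 19.9 M to 36.3 M estimated reads, with the 3 of TGF-β + H1.0 siRNA at 36.2 M to 36.3 M. Summed fibroblast markers reached 29700 to 42400 CPM, that is, counts scaled to a common library total, over the 12 libraries. Summed endothelial markers, 12 genes that include Pecam1 and Cdh5, lay at 60.5 to 64.8 CPM in TGF-β + H1.0 siRNA and at 80.7 or more in TGF-β + scramble, and at 66.2 to 84.4 in vehicle + H1.0 siRNA and 92.1 to 135.0 in vehicle + scramble. Of the 12, Tek was called lower with the siRNA in both treatments (475.9 ± 144.4 and 1084 ± 180.1 normalized counts in siRNA and scramble cells given TGF-β, edgeR adjusted p = 0.002), and the list's median log2 fold change was 0.29 in TGF-β and 0.00 in vehicle. Mural markers (10 genes, among them Rgs5, Cspg4 and Notch3) summed to 43.1 to 96.6 CPM in TGF-β + H1.0 siRNA and 98.2 to 223.0 in TGF-β + scramble cells, and to 57.9 to 99.6 in vehicle + H1.0 siRNA and 117.0 to 230.0 in vehicle + scramble cells. The median log2 fold change of the 9 mural genes tested was -0.87 with the siRNA in TGF-β and -1.28 in vehicle. By edgeR 0 of the 9 were called with the siRNA in either treatment, and Higd1b was at 0 in both TGF-β groups. Summed epicardial markers were 39.3 to 93.0 CPM in siRNA cells given TGF-β and 127.0 to 184.0 in scramble cells given TGF-β, and 41.4 to 79.7 and 153.0 to 198.0 in the siRNA and scramble cells given vehicle. Among these 10 genes Aldh1a2 alone was called (734.3 ± 315.9 normalized counts in TGF-β + H1.0 siRNA and 3779 ± 1007 in TGF-β + scramble, edgeR adjusted p = 0.00055), and the list's median log2 fold change with the siRNA was 0.72 in TGF-β, opposite in sign to the change of the sum, and -0.33 in vehicle. Cardiomyocyte markers summed to 7.4 to 8.56 CPM in TGF-β + H1.0 siRNA and 66.5 to 81.4 in TGF-β + scramble, and to 12.1 to 13.8 in vehicle + H1.0 siRNA and at least 89.6 in vehicle + scramble. Tnnt2 carried most of that sum (159.8 ± 12.7 normalized counts in TGF-β + H1.0 siRNA and 1899 ± 240.8 in TGF-β + scramble, edgeR adjusted p = 1.3e-07), and the other 9 markers reached at most 4.36 TPM in any library. Ryr2, at 0.46 TPM or less, was also called lower with the siRNA in both treatments. Macrophage markers summed to 471.0 to 723.0 CPM in TGF-β + H1.0 siRNA and 714.0 to 778.0 in TGF-β + scramble, and 919.0 to 1090 over the vehicle libraries. The part of these cells in the results was not tested. In such bulk RNA, fewer cells of a type and less RNA per cell cannot be told apart.

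Mcam, a receptor-like adhesion protein also called CD146, had 273.9, 307.8 and 236.9 normalized counts in the 3 TGF-β + H1.0 siRNA libraries and 2956, 2923 and 3027 in the 3 TGF-β + scramble libraries. In vehicle it had 136.0, 94.7 and 90.2 with the siRNA and 262.5, 448.0 and 296.0 with the scramble. All 3 TGF-β + scramble libraries stood above the other 9, and TGF-β + H1.0 siRNA libraries overlapped the range of vehicle + scramble. TGF-β against vehicle gave a log2 ratio of 1.36 ± 0.21 (SE) in siRNA cells and 3.15 ± 0.20 in scramble cells. With the siRNA it was -3.44 ± 0.20 in TGF-β and -1.66 ± 0.21 in vehicle. Mcam (GRCm38 chromosome 9, 44134469 to 44142727, plus strand) was the gene the choice rests on, so none of these values is given with a test.

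Ncam1, the neural cell adhesion molecule that binds itself across cells, had 5203, 6373 and 11716 normalized counts in TGF-β + H1.0 siRNA and 4438, 5787 and 5667 in TGF-β + scramble. In vehicle it had 374.3, 615.5 and 386.0 with the siRNA and 1028, 1297 and 1055 with the scramble. Every TGF-β library exceeded every vehicle library, and in vehicle the siRNA libraries lay below the scramble libraries without overlap. In siRNA cells Ncam1 rose 17.0-fold with TGF-β, a log2 fold change of 4.09 ± 0.31 (SE, edgeR quasi-likelihood adjusted p = 1.3e-05). In scramble cells the log2 fold change was 2.23 ± 0.29. Ncam1 fell by 1.30 on the log2 scale with the siRNA in vehicle (SE 0.29, edgeR adjusted p = 0.0044), whereas the siRNA libraries overlapped the scramble libraries in TGF-β (log2 fold change 0.55 ± 0.27). The fall in vehicle lost its call without vehicle + H1.0 siRNA replicate 1 or 3 (both edgeR adjusted p = 0.024) or vehicle + scramble replicate 1 (0.011) or 2 (0.018). The TGF-β response of Ncam1 in siRNA cells less that in scramble cells was 1.85 ± 0.40 (log2) with an edgeR adjusted p of 0.075, and DESeq2 called it at 0.00081.

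**Figure D1:**
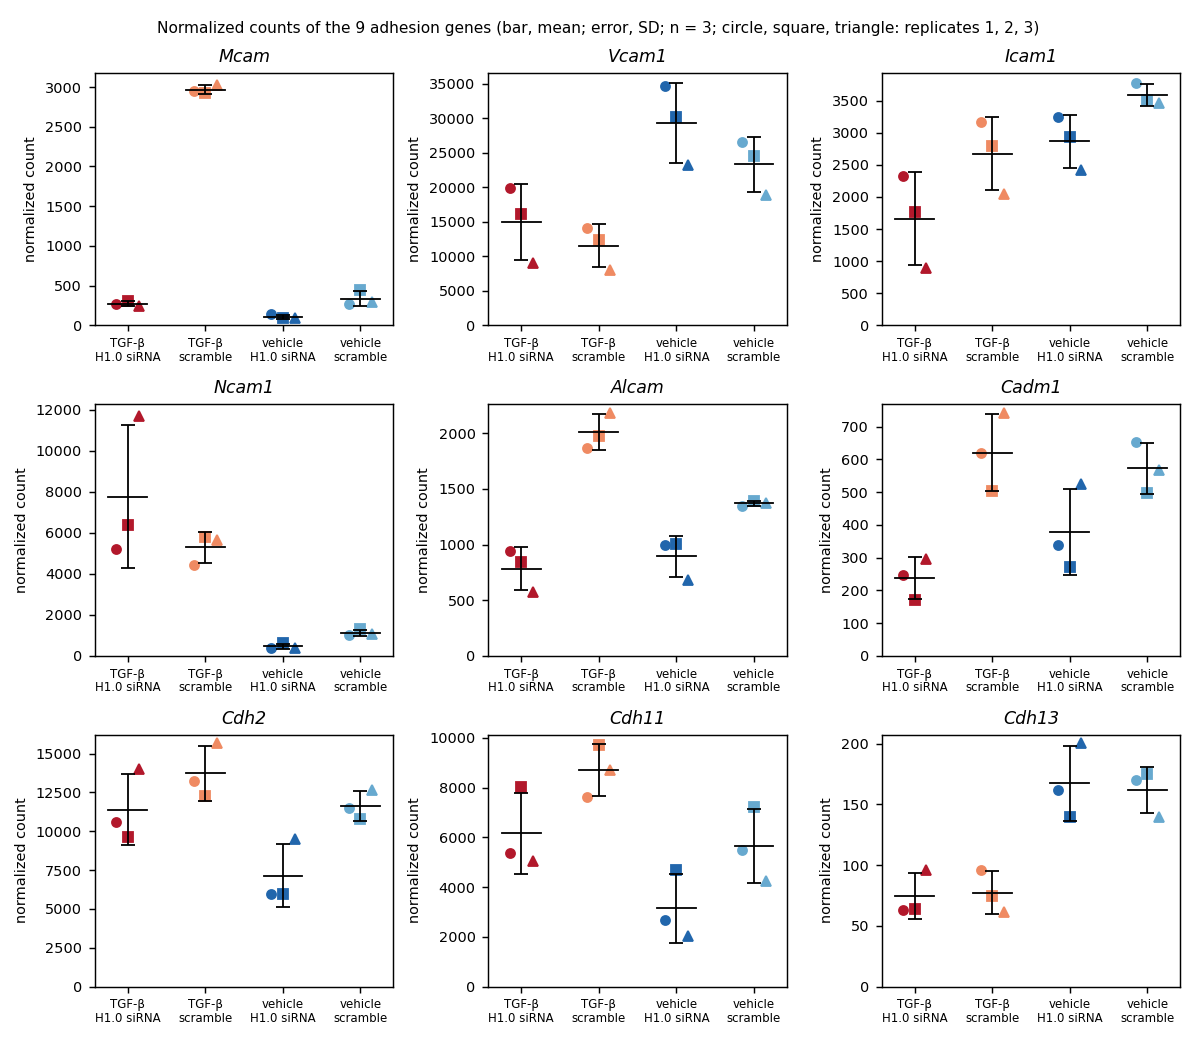
Normalized counts (vertical axis) of the 9 genes in 4 groups (horizontal axis), 1 panel a gene; points are libraries, the bar is the mean and the error bar the SD of 3 libraries. Mcam stood at 2923 to 3027 in TGF-β + scramble and at 448.0 or less elsewhere, and Ncam1 stood at 4438 or more in every TGF-β library and at 1297 or less in every vehicle library.

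Alcam and Cadm1 had their lowest mean in TGF-β + H1.0 siRNA. Alcam, a homophilic adhesion protein that also binds CD6 on T cells, had 938.0, 845.4 and 571.6 normalized counts in TGF-β + H1.0 siRNA and 1870, 1976 and 2183 in TGF-β + scramble, a log2 fold change of -1.36 ± 0.18 (SE). Its vehicle values were 992.4, 1007 and 684.7 with the siRNA and 1350, 1395 and 1373 with the scramble, again without overlap. That vehicle difference was -0.62 ± 0.18 on the log2 scale (edgeR adjusted p = 0.017), short of the threshold of 0.01, and passed with the replicate number as a block (0.0058). Cadm1, a nectin-like protein, had 248.3, 170.5 and 296.7 normalized counts in TGF-β + H1.0 siRNA and 618.5, 503.3 and 741.0 in TGF-β + scramble (log2 fold change -1.38 ± 0.26). In vehicle it had 338.3, 271.1 and 523.5 with the siRNA and 652.4, 497.6 and 567.4 with the scramble, groups that overlapped. The Cadm1 difference in vehicle was -0.59 ± 0.25 (edgeR adjusted p = 0.091, and 0.0029 with the replicate block). For TGF-β against vehicle in siRNA cells Alcam had a log2 ratio of -0.19 ± 0.18 (edgeR adjusted p = 0.48) and Cadm1 one of -0.67 ± 0.26 (0.073, and 0.0032 with the replicate block).

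Vcam1 and Icam1 were lower in TGF-β than in vehicle in every library of the same siRNA. Vcam1 had 19844, 16117 and 8976 normalized counts in TGF-β + H1.0 siRNA and 14153, 12397 and 8045 in TGF-β + scramble. In vehicle it had 34718, 30267 and 23216 with the siRNA and 26565, 24531 and 18920 with the scramble, so TGF-β and vehicle libraries did not overlap within either siRNA, while siRNA and scramble libraries overlapped within either treatment. TGF-β against vehicle gave Vcam1 a log2 ratio of -0.97 ± 0.29 (SE) in siRNA cells, with an edgeR adjusted p of 0.025 that became 2.8e-05 with the replicate block, and -1.02 ± 0.29 in scramble cells. With the siRNA in vehicle the Vcam1 difference was 0.33 ± 0.28 (edgeR adjusted p = 0.40). Those counts are not corrected for transcript length. In TPM, a level that is, Vcam1 had 1020, 871.6 and 651.7 in the vehicle libraries with the siRNA. With the scramble it had 639.9, 587.3 and 436.3 in vehicle, without overlap. In TGF-β its TPM values overlapped, and the difference in TPM was not tested. Icam1 averaged 1662 ± 724.1 normalized counts in TGF-β + H1.0 siRNA and 2675 ± 571.7 in TGF-β + scramble, and 2869 ± 412.9 in vehicle + H1.0 siRNA and 3587 ± 172.8 in vehicle + scramble (SD, n = 3). The Icam1 log2 ratio of TGF-β to vehicle was -0.79 ± 0.28 in siRNA cells (edgeR adjusted p = 0.053, and 0.0027 with the replicate block). In vehicle its difference with the siRNA was -0.32 ± 0.27 (adjusted p = 0.40). In the comparisons behind the choice its log2 ratios were -0.42 ± 0.27 with TGF-β in scramble cells and -0.69 ± 0.28 with the siRNA in TGF-β.

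Of the cadherins, Cdh2 had 10588, 9613 and 13986 normalized counts in TGF-β + H1.0 siRNA and 13258, 12274 and 15706 in TGF-β + scramble, and 5944, 5979 and 9480 in vehicle + H1.0 siRNA and 11493, 10781 and 12687 in vehicle + scramble. The 3 vehicle + H1.0 siRNA libraries were the lowest of the 12, with replicate 3 just under the lowest TGF-β + H1.0 siRNA library. Its log2 fold change was 0.68 ± 0.19 (SE) with TGF-β in siRNA cells (edgeR adjusted p = 0.022, 0.00013 with the replicate block) and -0.71 ± 0.19 with the siRNA in vehicle (0.013, and 6.2e-05 with the block). Cdh11 averaged 6156 ± 1632 normalized counts in TGF-β + H1.0 siRNA and 8694 ± 1044 in TGF-β + scramble, and 3142 ± 1385 in vehicle + H1.0 siRNA and 5653 ± 1496 in vehicle + scramble (SD, n = 3). For Cdh11 the log2 fold change was 0.97 ± 0.29 with TGF-β in siRNA cells (edgeR adjusted p = 0.029, 0.00027 with the replicate block) and -0.85 ± 0.29 with the siRNA in vehicle (0.042, and 0.00051 with the block). With the siRNA in TGF-β the log2 ratio was -0.27 ± 0.19 for Cdh2 and -0.50 ± 0.29 for Cdh11, and TGF-β over vehicle among scramble libraries gave 0.24 ± 0.19 for Cdh2 and 0.62 ± 0.29 for Cdh11. In Cdh11 replicate 2 was the highest of its group in all 4 groups.

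Cdh13 was scarce. It had 62.8, 64.0 and 96.3 normalized counts in TGF-β + H1.0 siRNA and 96.4, 74.5 and 61.3 in TGF-β + scramble, against 161.8, 139.7 and 200.4 in vehicle + H1.0 siRNA and 169.9, 175.0 and 140.0 in vehicle + scramble. All 6 TGF-β libraries lay below all 6 vehicle libraries, and the siRNA and scramble libraries overlapped in both treatments. Cdh13 fell by 1.17 on the log2 scale with TGF-β in siRNA cells (SE 0.22, edgeR adjusted p = 0.0027). This call was lost without TGF-β + H1.0 siRNA replicate 1 (0.013) or 2 (0.012), without vehicle + H1.0 siRNA replicate 3 (0.011), with an offset for transcript length (0.018) and with the 2 groups alone in the fit (0.014). In scramble cells its log2 ratio of TGF-β to vehicle was -1.06 ± 0.23. With the siRNA in vehicle it differed by 0.05 ± 0.22 (edgeR adjusted p = 0.88).

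**Figure D2:**
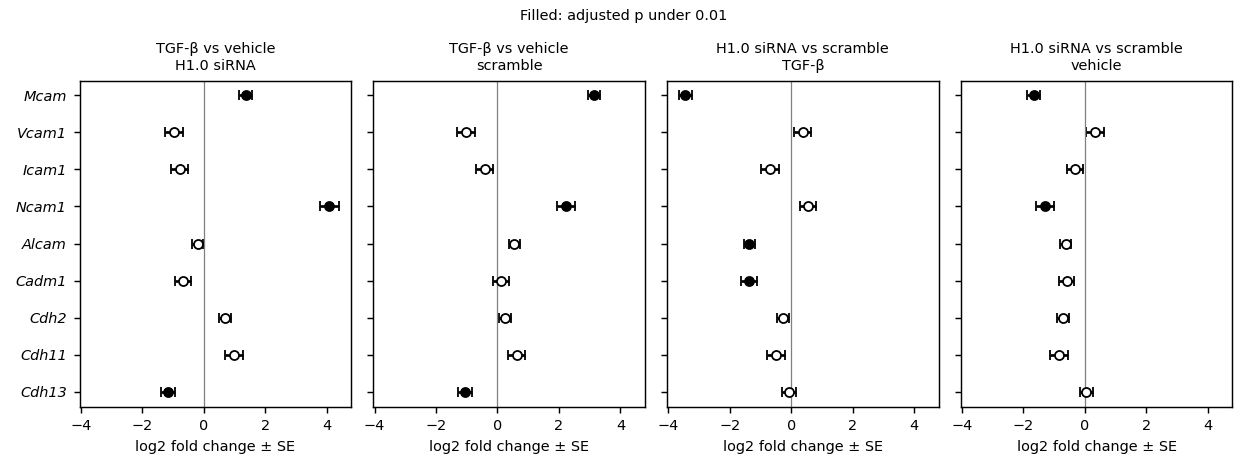
Log2 fold change (horizontal axis, bars are SE) of each gene in 4 comparisons, filled where the edgeR adjusted p was under 0.01, which for Mcam and for the 2 comparisons behind the choice is a description. Mcam had the lowest value with the siRNA in TGF-β (-3.44) and Ncam1 the highest with TGF-β in siRNA cells (4.09).

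Calls were counted over the 8 genes other than Mcam, whose own values made the choice. With TGF-β in siRNA cells 1 of the 8 passed the threshold upward (Ncam1), where 9.14% of all genes did, and 1 downward (Cdh13), where 6.60% did. With the replicate block these counts were 3 and 4, where 2551 and 2274 of all 18028 genes passed. With the siRNA in vehicle 1 of 8 passed downward (Ncam1) against 11.2% of all genes, and 5 with the block, where 2915 of all 18028 genes did. None of the 8 passed upward with the siRNA in vehicle by edgeR, by DESeq2 or by limma-voom, and 0 had an unadjusted p under 0.05. By edgeR 13.4% of all genes passed upward there, so 0 of 8 is not read as a result. In the comparisons behind the choice, as a description from which nothing is read, Ncam1 lay past the threshold upward and Cdh13 downward with TGF-β in scramble cells (10.5% and 7.94% of all genes did), and Alcam and Cadm1 downward with the siRNA in TGF-β (11.3% of all genes). Over both directions 15.7% of all genes were called with TGF-β in siRNA cells and 18.4% in scramble cells. With TGF-β in siRNA cells the libraries of 3 of the 8 did not overlap upward (Ncam1, Cdh2 and Cdh11, 21.5% of all genes) and those of 3 did not overlap downward (Vcam1, Icam1 and Cdh13, 21.1%). In scramble cells this held upward for Ncam1, Alcam and Cdh11 (23.6% of all genes) and downward for the same 3 as in siRNA cells (22.0%). With the siRNA it held, in normalized counts, downward for 4 of the 8 in vehicle (22.4% of all genes) and for 2 in TGF-β (21.0%), and upward for 0 in each (25.5%). The comparison of TGF-β in siRNA cells shares libraries with that of the siRNA in TGF-β, and the siRNA comparison in vehicle shares its scramble libraries with TGF-β in scramble cells. Over all 9 genes, Mcam included, the median log2 ratio was -0.19 with TGF-β in siRNA cells and -0.62 with the siRNA in vehicle, beside -0.01 and 0.00 over all genes. For the difference between the 2 TGF-β responses, 0 of the 8 passed by edgeR with or without the block, 3 had an unadjusted p under 0.05 and DESeq2 called 1, Ncam1 (limma-voom 0), where edgeR called 0.0444% of all genes.

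Levels per length, in TPM (a transcript's share of all transcripts in a library after correction for length), put Vcam1 first in all 4 groups. Vcam1 averaged 391.3 ± 156.7 TPM in TGF-β + H1.0 siRNA, 259.4 ± 74.6 in TGF-β + scramble, 847.8 ± 185.4 in vehicle + H1.0 siRNA and 554.5 ± 105.7 in vehicle + scramble (SD, n = 3). Cdh2 came second in each group, and its libraries overlapped those of Vcam1 only in TGF-β + scramble. Mcam averaged 7.10 ± 1.37 TPM in TGF-β + H1.0 siRNA, the seventh level and overlapping Cadm1, and 79.0 ± 1.91 in TGF-β + scramble, the fourth level and overlapping Icam1 and Ncam1. In vehicle, Mcam averaged 2.72 ± 0.641 TPM with the siRNA, the lowest of the 9 and overlapping Cdh13, and 9.38 ± 2.89 with the scramble, the eighth level and overlapping Cadm1. Ncam1 was the third level in TGF-β + H1.0 siRNA (112.3 ± 47.4 TPM, overlapping Cdh2 and Cdh11) and the sixth in TGF-β + scramble (76.7 ± 12.3, overlapping Icam1 and Mcam). It was seventh in vehicle + H1.0 siRNA (7.76 ± 2.35) and sixth in vehicle + scramble (17.2 ± 1.90), overlapping Cadm1 in both.

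**Figure D3:**
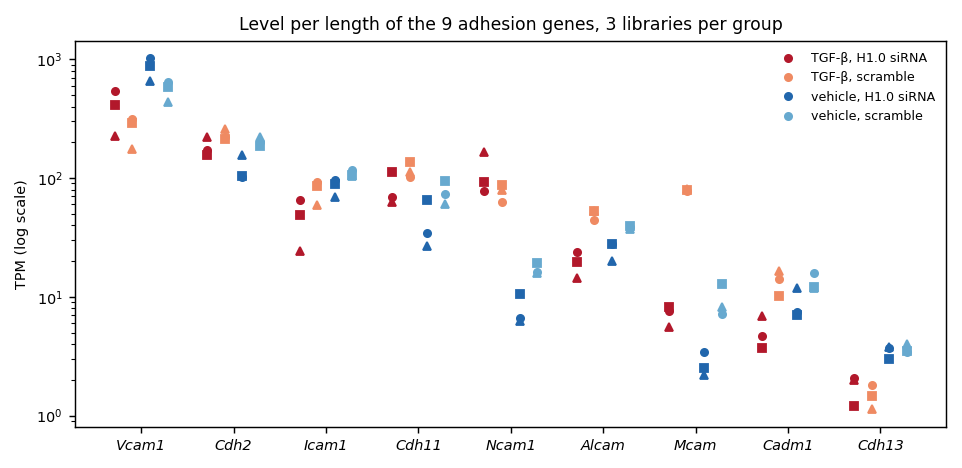
TPM (vertical axis, log scale) of the 9 genes (horizontal axis) in each library, coloured by group with 3 libraries a group. Vcam1 reached 1020 TPM in a vehicle + H1.0 siRNA library, and Cdh13 stayed at 3.98 TPM or less.

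The transcripts of a gene were a readout that the choice did not use. A transcript's share is its TPM as a percent of the summed TPM of its gene, and 23 of the 50 listed transcripts held at least 10% of their gene in some group. H1.0 siRNA and scramble libraries were compared within treatment by an exact permutation test (two-sided, 400 regroupings, smallest possible p of 0.005), and TGF-β was tested likewise within siRNA, with Benjamini-Hochberg adjustment over 46 tests and a threshold of 0.05. The test called 5 shares, 3 of Vcam1 and 2 of Ncam1, all for the siRNA. Shares within a gene are complementary, so the calls of 1 gene describe 1 shift and are not separate results. All 5 tied at the smallest possible p, and their adjusted p of 0.046 rests on counting them as separate tests.

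Long Vcam1 is the full-length form, with 9 exons and 739 codons. Short Vcam1 leaves it after the fourth exon and ends in an exon of its own (345 codons in all), whose coding bases lie at GRCm38 chromosome 3, 116123684 to 116123793, minus strand, a short form known in mouse to be GPI-anchored. The following lines give the place where the 2 forms part, coding strand, with the last 30 shared bases in lower case and the first 110 bases particular to each form in capitals, up to the stop codon in short Vcam1 and from 116121073 down to 116120964 in long Vcam1.
Short Vcam1: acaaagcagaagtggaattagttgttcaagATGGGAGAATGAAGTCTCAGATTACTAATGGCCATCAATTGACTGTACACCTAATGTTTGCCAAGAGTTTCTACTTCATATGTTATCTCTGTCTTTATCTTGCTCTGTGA
Long Vcam1: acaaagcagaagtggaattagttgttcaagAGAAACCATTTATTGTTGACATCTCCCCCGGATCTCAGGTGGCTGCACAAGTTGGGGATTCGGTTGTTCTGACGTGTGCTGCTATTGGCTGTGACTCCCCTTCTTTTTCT

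Long Vcam1 held 48.6%, 57.0% and 51.5% of Vcam1 TPM in TGF-β + H1.0 siRNA and 84.9%, 83.9% and 84.0% in TGF-β + scramble. In vehicle it held 45.4%, 49.4% and 45.0% with the siRNA and 81.2%, 79.3% and 82.4% with the scramble. The 6 siRNA libraries did not overlap the 6 scramble libraries, and the share fell by 33.11 points (exact permutation p = 0.005, adjusted p = 0.046, lower in both treatments). Short Vcam1 held 27.8%, 24.7% and 30.1% in TGF-β + H1.0 siRNA and 8.78%, 8.99% and 11.2% in TGF-β + scramble, and 32.1%, 30.1% and 31.3% in vehicle + H1.0 siRNA and 10.2%, 11.1% and 10.9% in vehicle + scramble. Its share rose by 19.17 points (exact permutation p = 0.005, adjusted p = 0.046). In TPM, short Vcam1 averaged 106.0 ± 41.0 in TGF-β + H1.0 siRNA and 24.4 ± 4.23 in TGF-β + scramble, and 265.0 ± 61.6 in vehicle + H1.0 siRNA and 59.3 ± 10.2 in vehicle + scramble. Over the same libraries long Vcam1 averaged 204.0 ± 77.0 TPM in TGF-β + H1.0 siRNA and 219.0 ± 63.7 in TGF-β + scramble, and 396.0 ± 90.1 in vehicle + H1.0 siRNA and 448.0 ± 81.5 in vehicle + scramble. These libraries overlapped within each treatment. The Vcam1 5′ model, an incomplete annotated model of 3 exons at the 5′ end, rose by 14.53 points (mean 19.3% in TGF-β + H1.0 siRNA and 5.01% in TGF-β + scramble, 21.6% in vehicle + H1.0 siRNA and 6.85% in vehicle + scramble, exact permutation p = 0.005, adjusted p = 0.046). Vcam1 with a retained intron, picked after its values were seen, had 2.78 ± 0.910 TPM in TGF-β + H1.0 siRNA and 2.71 ± 0.723 in TGF-β + scramble, and 5.14 ± 1.28 in vehicle + H1.0 siRNA and 7.89 ± 0.575 in vehicle + scramble (SD, n = 3). The forms share exons, so their split is an estimate from the reads that tell them apart.

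Ncam1 has several forms that part at the membrane. GPI Ncam1 (725 codons) ends in an exon of its own and is the GPI-anchored form, whereas forms of 849 and 848 codons go on into the membrane-spanning (TM) exon. The next lines give that branch point in the same way, with the last 30 shared bases in lower case and 77 bases of each ending in capitals, up to the stop codon in GPI Ncam1 (GRCm38 chromosome 9, minus strand, 49517506 to 49517582 for GPI Ncam1 and 49509836 to 49509912 for the 848-codon Ncam1).
GPI Ncam1: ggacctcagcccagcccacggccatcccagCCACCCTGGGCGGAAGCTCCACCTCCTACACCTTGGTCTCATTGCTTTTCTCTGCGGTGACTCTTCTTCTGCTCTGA
848-codon Ncam1: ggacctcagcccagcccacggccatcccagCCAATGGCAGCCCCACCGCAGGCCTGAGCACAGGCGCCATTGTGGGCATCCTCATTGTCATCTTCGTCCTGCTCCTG

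GPI Ncam1 held 17.2%, 12.3% and 14.7% of Ncam1 TPM in TGF-β + H1.0 siRNA and 9.02%, 9.39% and 6.45% in TGF-β + scramble. In vehicle it held 28.8%, 17.8% and 26.7% with the siRNA and 9.68%, 6.73% and 4.47% with the scramble. Each siRNA library exceeded each scramble library, and the share rose by 11.94 points (exact permutation p = 0.005, adjusted p = 0.046). The share of the 848-codon Ncam1 fell by 13.10 points, with means of 48.6% in TGF-β + H1.0 siRNA and 59.7% in TGF-β + scramble, and of 44.4% in vehicle + H1.0 siRNA and 59.5% in vehicle + scramble (exact permutation p = 0.005, adjusted p = 0.046). In TPM the 848-codon form averaged 54.9 ± 24.7 and 45.7 ± 6.5 in siRNA and scramble cells with TGF-β, and 3.45 ± 1.11 and 10.3 ± 1.95 with vehicle. GPI Ncam1 averaged 16.4 ± 6.98 and 6.35 ± 1.64 TPM with TGF-β, and 1.81 ± 0.124 and 1.2 ± 0.446 with vehicle. It had as few as 19.4 estimated reads in a vehicle + scramble library. The 849-codon Ncam1 held 24.1% to 27.4% in the group means. The 1088-codon Ncam1, which holds an 801-base exon (chromosome 9, 49506853 to 49507653) in its cytoplasmic part and was picked after its values were seen, averaged 7.05 ± 2.88 TPM in TGF-β + H1.0 siRNA and 3.34 ± 0.771 in TGF-β + scramble, and 0.0984 ± 0.0927 TPM in vehicle + H1.0 siRNA and 0.362 ± 0.313 in vehicle + scramble. All 5 called shares lost their call without TGF-β + scramble replicate 3 or vehicle + scramble replicate 3 (adjusted p of 0.058 to 0.077), where fewer regroupings exist and the differences kept their size. They were called again as shares of estimated reads (adjusted p = 0.033 each).

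Long-tail Mcam and short-tail Mcam differ by 1 exon of 118 bases, which shifts the reading frame so that the second form ends in a shorter cytoplasmic tail (648 and 606 codons). The exon lies at GRCm38 chromosome 9, 44141275 to 44141392, plus strand. Below, long-tail Mcam has this exon in capitals between shared bases, and short-tail Mcam has in capitals the bases that follow the junction up to its stop codon.
Long-tail Mcam: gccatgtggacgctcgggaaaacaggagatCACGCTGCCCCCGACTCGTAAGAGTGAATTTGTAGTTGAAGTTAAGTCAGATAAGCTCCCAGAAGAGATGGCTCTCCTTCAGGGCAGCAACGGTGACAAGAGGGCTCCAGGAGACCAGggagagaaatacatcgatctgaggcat
Short-tail Mcam: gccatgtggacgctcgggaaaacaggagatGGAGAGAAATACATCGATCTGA

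Long-tail Mcam averaged 64.6% ± 3.94 of Mcam TPM in TGF-β + H1.0 siRNA and 56.6% ± 4.31 in TGF-β + scramble, and 63.3% ± 21.5 in vehicle + H1.0 siRNA and 55.3% ± 4.78 in vehicle + scramble (SD, n = 3). Short-tail Mcam averaged 24.4% ± 6.43 and 37.3% ± 7.80 in the siRNA and scramble cells given TGF-β, and 36.7% ± 21.5 and 36.8% ± 3.37 in those given vehicle. Neither share passed the test, and both forms were high together in TGF-β + scramble, with long-tail Mcam at 44.7 ± 3.74 TPM and short-tail Mcam at 29.4 ± 5.94 TPM.

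**Figure D4:**
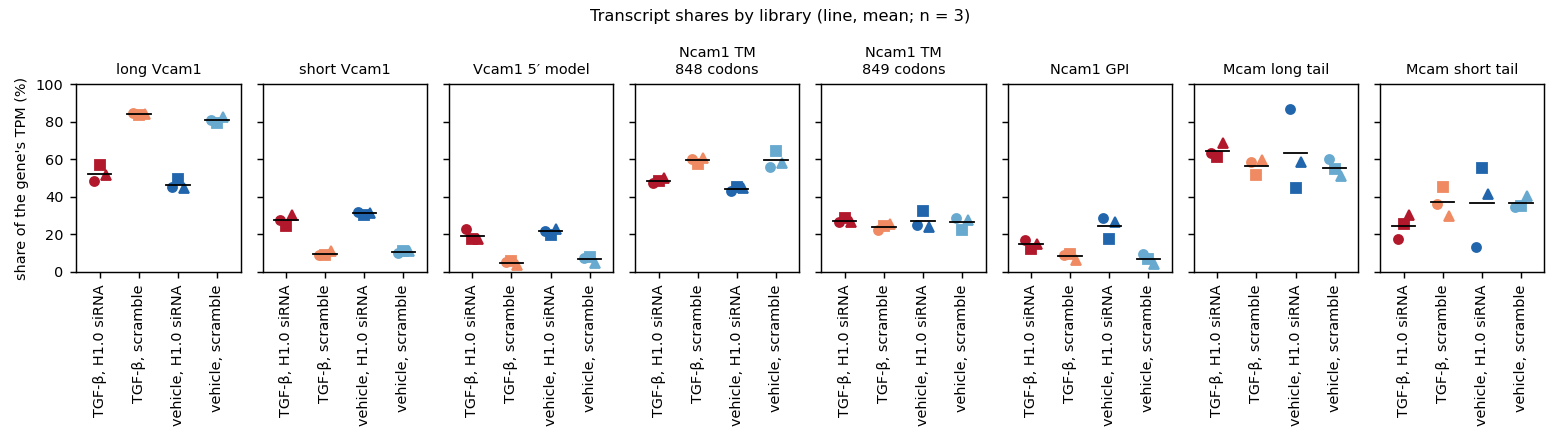
Share of the gene's TPM (vertical axis, percent) held by 8 transcripts in each library of the 4 groups; the line is the mean of 3 libraries. Long Vcam1 sits at 45.0% to 57.0% in siRNA libraries and at 79.3% to 84.9% in scramble libraries, with short Vcam1 the other way round.

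RefSeq promoter windows (250 bases before to 50 after the start, GRCm38.p6) were found for 3 of the 9 genes, Mcam, Icam1 and Alcam. Both strands were searched for TGANTCA (AP-1), CAGAC (SMAD), GGG, any 3 bases and TTCC (NF-κB) and the CArG box of SRF. The Icam1 window held 1 CAGAC match on the reverse strand, 36 bases after the start, and the Mcam and Alcam windows held no match to any of the 4. Over 32851 windows of this length the shares with a match were 7.81% for AP-1, 49.6% for SMAD, 5.56% for NF-κB and 1.63% for the CArG box. The NF-κB pattern is narrow, and near matches were not searched. The Icam1 window holds tggaaattcc, which differs from it in the first letter only, so a lack of match does not mean a lack of site. A match describes letters, not binding.

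Among 11455 genes, those whose log2 CPM followed Mcam most closely over the 12 libraries were Rab27a (Pearson r = 0.984), Unc45a (0.978), Usp1 (0.976), Sf3b3 (0.975) and Msrb1 (0.974). Rab27a, a small GTPase of vesicle docking, averaged 46.7 ± 10.5 normalized counts in TGF-β + H1.0 siRNA and 250.3 ± 24.7 in TGF-β + scramble, and 23.8 ± 6.89 in vehicle + H1.0 siRNA and 62.3 ± 1.18 in vehicle + scramble. Usp1, a deubiquitinase, averaged 1095 ± 7.63 and 2304 ± 23.8 normalized counts in siRNA and scramble cells with TGF-β, and 1002 ± 64.8 and 1254 ± 106.0 in those with vehicle. The other members ranged in r with Mcam from 0.818 (Alcam) and 0.781 (Cdh11) to -0.581 (Cdh13) and -0.679 (Vcam1). These correlations run over 4 groups of 3 libraries and rest largely on the group means.

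The other adhesion genes were taken as 7 lists. Of the other immunoglobulin-type molecules, 49 of 55 were tested. With the siRNA, 3 passed upward and 7 downward in TGF-β (12 downward with the replicate block), and 4 and 4 in vehicle (6 and 9 with the block), beside 13.0% upward and 11.3% downward of all genes in TGF-β and 13.4% and 11.2% in vehicle. With the block, 3179 and 2879 of all 18028 genes passed upward and downward in TGF-β, and 3139 and 2915 in vehicle. These stand beside the siRNA block counts of the lists below. Negr1, a GPI-anchored neuronal growth regulator, fell by 3.03 on the log2 scale in TGF-β (35.6 ± 15.6 normalized counts with the siRNA and 292.7 ± 52.4 with the scramble, edgeR adjusted p = 2.8e-05) and also in vehicle (77.3 ± 17.1 and 604.3 ± 148.0, log2 fold change -2.97, 2.9e-05). Thy1, a GPI-anchored fibroblast surface protein, fell in TGF-β (184.8 ± 60.2 and 1448 ± 684.0, edgeR adjusted p = 0.00036). Kirrel, a nephrin-like protein of slit and muscle contacts, rose by 0.78 in TGF-β (11771 ± 1204 with the siRNA and 6877 ± 816.4 with the scramble, edgeR adjusted p = 0.00037).

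Of the other cadherins, 38 of 43 were tested, and with the siRNA 2 passed upward and 7 downward in TGF-β (12 downward with the block) and 1 upward and 8 downward in vehicle (2 and 11 with the block). The shares of all genes upward and downward were 13.0% and 11.3% in TGF-β and 13.4% and 11.2% in vehicle. Their median log2 fold change was -0.39 in TGF-β and -0.58 in vehicle, beside 0.04 and 0.00 over all genes. Cdh3 (P-cadherin) fell by 2.86 in TGF-β (88.2 ± 39.4 normalized counts with the siRNA and 639.6 ± 115.9 with the scramble, edgeR adjusted p = 3.3e-05). Dchs1 and Dchs2, large cadherins of planar cell polarity, fell by 1.57 and 1.89 in TGF-β and by 1.79 and 2.01 in vehicle (edgeR adjusted p from 1.3e-05 to 0.00033). Cdh19, also a Schwann cell marker, fell by 1.42 in TGF-β and 2.25 in vehicle (edgeR adjusted p = 0.00096 and 6e-05), while summed Schwann markers reached 20.7 to 26.8 CPM in TGF-β + H1.0 siRNA and 30.4 to 36.3 in TGF-β + scramble. Pcdh19 rose by 0.86 in TGF-β (3840 ± 518.7 with the siRNA and 2116 ± 252.0 with the scramble, edgeR adjusted p = 0.00071).

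Of the catenins and adaptors that tie cadherins to actin, 20 were tested. With the siRNA 2 passed upward and 4 downward in TGF-β (1 and 8 with the block), and 3 and 4 in vehicle (8 downward with the block). Of all genes 13.0% passed upward and 11.3% downward in TGF-β, and 13.4% and 11.2% in vehicle. Ctnnb1 (β-catenin) rose to 9286 ± 399.9 normalized counts in TGF-β + H1.0 siRNA, against 6543 ± 120.9 in TGF-β + scramble (log2 fold change 0.51 ± 0.07, edgeR adjusted p = 0.00018). Ctnna1 (α-catenin) fell to 5498 ± 44.1, against 9430 ± 431.0, in the same groups (-0.78 ± 0.06, 2.8e-06), and to 5214 ± 140.9 in vehicle + H1.0 siRNA, against 9325 ± 219.5 in vehicle + scramble (-0.84 ± 0.06, 1.9e-06). Pkp4, Afdn and Tjp1, which link junctions to the cytoskeleton, fell in both treatments by 0.47 to 1.55 on the log2 scale (edgeR adjusted p of 0.0001 or less).

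Of 26 tested ligands, receptors and partners, 1 passed upward and 3 downward with the siRNA in TGF-β (5 and 6 with the block) and 3 and 4 in vehicle (5 and 9 with the block). Among all genes 13.0% and 11.3% did in TGF-β, and 13.4% and 11.2% in vehicle. Msn (moesin), which binds the tails of Icam1 and Vcam1, rose to 39156 ± 5215 normalized counts in TGF-β + H1.0 siRNA, against 13551 ± 1051 in TGF-β + scramble (log2 fold change 1.53 ± 0.14, edgeR adjusted p = 1.5e-05). Itga4, the integrin chain that binds Vcam1, rose to 1885 ± 445.0 in TGF-β + H1.0 siRNA, against 768.2 ± 77.0 in vehicle + H1.0 siRNA (1.30 ± 0.20, 0.00086). Itgal, a chain of an integrin that binds Icam1, rose in siRNA cells (227.6 ± 89.9 with TGF-β and 30.9 ± 11.9 with vehicle, 2.87 ± 0.37, 0.00028) and in scramble cells (189.3 ± 48.4 and 14.0 ± 4.96, 3.74 ± 0.41, 0.00013). The more abundant integrin chain Itgb2 fell in siRNA cells (812.0 ± 138.1 with TGF-β and 1151 ± 44.8 with vehicle, -0.50 ± 0.10, edgeR adjusted p = 0.0042). It also fell in scramble cells (696.1 ± 31.4 and 1055 ± 47.4, -0.60 ± 0.10, 0.0015). Lgals3 (galectin-3), which binds Mcam, fell to 1580 ± 204.3 in TGF-β + H1.0 siRNA, against 4176 ± 466.7 in vehicle + H1.0 siRNA (edgeR adjusted p = 2.6e-05), and to 2140 ± 281.0 in TGF-β + scramble, against 4655 ± 284.2 in vehicle + scramble (0.00011).

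Of the 13 sheddases and glycan enzymes, 5 passed upward and 3 downward with the siRNA in TGF-β, and 3 and 2 in vehicle. Among all genes 13.0% and 11.3% did in TGF-β, and 13.4% and 11.2% in vehicle. Adam10, the protease that sheds N-cadherin, fell by 1.08 in TGF-β (5934 ± 233.3 normalized counts with the siRNA and 12569 ± 553.3 with the scramble, edgeR adjusted p = 1.1e-06) and by 1.00 in vehicle (4530 ± 229.2 and 9091 ± 300.9, 1.4e-06). Tspan14, a tetraspanin that escorts Adam10, rose by 0.52 in TGF-β and 0.53 in vehicle (edgeR adjusted p = 0.0011 each). Mmp14 rose in siRNA cells (13690 ± 1632 with TGF-β and 5441 ± 685.0 with vehicle, log2 fold change 1.33 ± 0.13, edgeR adjusted p = 4.6e-05) and in scramble cells (9156 ± 829.3 and 5170 ± 693.0, 0.82 ± 0.13, 0.00073).

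The NF-κB pathway drives Vcam1 and Icam1 in inflammation. Of 24 listed genes, the same 5 (Nfkb2, Rela, Irf1, Ikbkg and Tnfrsf1b) passed upward with the siRNA in TGF-β and in vehicle. Of all genes 13.0% did in TGF-β and 13.4% in vehicle. The list's median log2 fold change was 0.07 in TGF-β and 0.11 in vehicle, beside 0.04 and 0.00 over all genes. The 2 comparisons share no library, but they share 1 fit and the replicate numbers pair their libraries, so they are not independent. By edgeR and DESeq2, 0 passed downward in either, with 3 at an unadjusted p under 0.05 in each. With the replicate block 7 passed upward and 1 downward in TGF-β, and 5 and 1 in vehicle. Rela, the p65 subunit, rose to 2163 ± 115.5 normalized counts in TGF-β + H1.0 siRNA, against 1228 ± 37.3 in TGF-β + scramble (0.82 ± 0.06, edgeR adjusted p = 3.5e-06). Ikbkg, the scaffold of the IκB kinase, rose by 1.01 in TGF-β and 0.85 in vehicle (edgeR adjusted p = 6.3e-05 and 0.00021). Of 11 tested transcription factors of the cadherin switch, 1 passed upward and 4 downward with the siRNA in TGF-β, and 0 (DESeq2 0, 1 at an unadjusted p under 0.05) and 5 in vehicle. Among all genes 13.0% and 11.3% did in TGF-β, and 13.4% and 11.2% in vehicle. Foxc2 fell to 471.7 ± 21.5 in TGF-β + H1.0 siRNA, against 1112 ± 30.6 in TGF-β + scramble (-1.24 ± 0.10, edgeR adjusted p = 4.6e-06), and rose with TGF-β in scramble cells (1.68 ± 0.10, 9.1e-06).

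TGF-β moved the same lists as follows, beside 9.14% upward and 6.60% downward of all genes in siRNA cells and 10.5% and 7.94% in scramble cells. With the replicate block 2551 and 2274 of all 18028 genes passed in siRNA cells, and 2777 and 2348 in scramble cells. In siRNA cells 8 immunoglobulin-type genes passed upward and 2 downward (9 downward with the block), and in scramble cells 7 and 3. The other cadherins gave 6 and 1 in siRNA cells and 7 and 1 in scramble cells (4 downward with the block in each). The catenins and adaptors gave 2 and 3 in siRNA cells and 2 and 2 in scramble cells (7 upward with the block in each), and the ligands and partners 10 and 2 (5 downward with the block) and 5 and 3 (9 and 5 with the block). The sheddases gave 5 and 2 in both. Of the NF-κB genes 4 passed downward in siRNA cells (9 with the block) and 3 in scramble cells (8 with the block), with 0 upward in each by edgeR, 1 at an unadjusted p under 0.05 and 1 by DESeq2 in each. The transcription factors gave 1 upward in both, and downward 0 in siRNA cells (edgeR; 3 at an unadjusted p under 0.05, DESeq2 0, 2 with the block) and 2 in scramble cells (5 with the block). The difference of the TGF-β responses was called by edgeR for 0 genes of the 7 lists. At an unadjusted p under 0.05 it gave at most 5 genes upward and 2 downward in any list, and DESeq2 called 2 cadherins upward and 1 immunoglobulin-type gene downward. With the replicate block edgeR called 2 immunoglobulin-type genes downward, and 1 cadherin, 1 sheddase and 1 transcription factor upward.

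**Figure D5:**
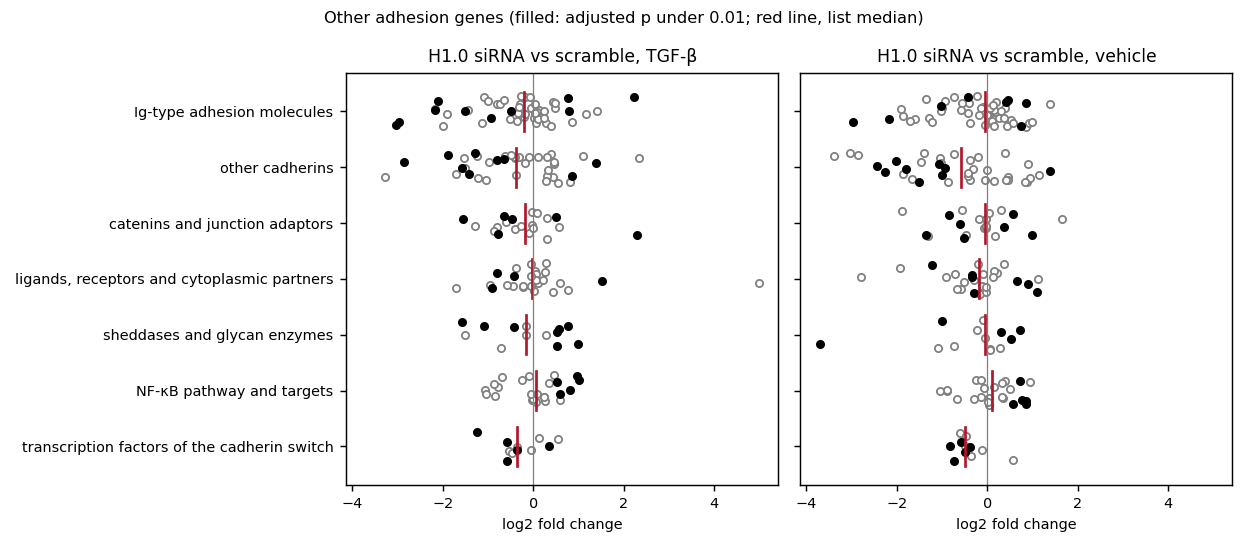
Log2 fold change with the siRNA (horizontal axis) of every tested gene in 7 lists (vertical axis), in TGF-β and in vehicle; filled points have an edgeR adjusted p under 0.01 and the red line is the list median. The other cadherins' medians stand at -0.39 and -0.58, and the transcription factor medians at -0.36 and -0.49.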

How the data were processed

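RNA of cardiac fibroblasts, depleted of ribosomal RNA, was sequenced as paired ends. The authors quantified reads with Salmon 1.4.0 against mouse transcripts (Ensembl build 102, mm10) and deposited, per transcript and library, estimated counts and TPM. Strand handling is not given in the sources used here. Of 117135 transcripts, 115973 matched GENCODE M21 (GRCm38) by identifier and were summed into 35523 genes, with expected counts then rounded. Reads shared by transcripts or near-identical genes were split by estimate.

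A minimum of 10 counts, summed over libraries, left 18028 genes for 1 edgeR 4.0.16 fit (R 4.3.3) of the 4 groups with TMM scaling and the quasi-likelihood F test. P-values were adjusted after Benjamini and Hochberg, and an adjusted p under 0.01 was a call. Standard errors are the log2 fold change over the root of F. The study's methods name biological replicates, and chi-square per degree of freedom between replicates was at least 9.41. Libraries with the same replicate number deviated together (r of 0.226 to 0.607 over 18 pairs, -0.533 to 0.218 over 36 others), so the numbers pair the libraries, and the number served as a block in an alternative fit. Further alternatives were DESeq2 1.42.0, limma-voom (3.58.1), RLE factors, TMM without the most abundant genes, 2 other filters, a length offset, thinning, a fit of only the groups compared, and leaving out each library. The fit was tested on simulated data.

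Members, lists and tests were chosen with earlier results of these data known, and list counts under the alternatives were added after seeing the data. The rule for named list genes took up to 4 called genes per list, comparison and direction with the widest log2 fold change and a mean of at least 100 normalized counts in the higher group, and the text gives part of them. For Mcam it took the 5 genes with the highest r among those above the same minimum. Transcript sequences are from GENCODE M21 and promoter windows from RefSeq.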

Additional observations from a re-analysis of the deposited data

How the results depend on the processing

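With the replicate number as a block, 5125 genes were called (3324 without it) for TGF-β in scramble cells, 4825 (2838) for TGF-β in siRNA cells and 118 (8) for the difference of the TGF-β responses. Of the 9 members, 2 then passed downward with TGF-β in scramble cells, 4 upward and 4 downward with TGF-β in siRNA cells, 6 downward with the siRNA in vehicle and 1 downward for the difference, which was Mcam. These counts and those that follow include Mcam, whose values made the choice and which is given no test. Beyond the calls given with the block in the text, the block added Icam1 downward with the siRNA in TGF-β, and Cdh11 upward and Vcam1 downward with TGF-β in scramble cells, and apart from Mcam for the difference it changed no other member's call. Transcript shares were not run with a block. DESeq2 called 2 of the 8 downward with TGF-β in scramble cells, and 3 upward and 2 downward with TGF-β in siRNA cells. It called 4 of the 8 downward with the siRNA in vehicle, and 1 upward for the difference, where it called 239 genes. For the difference, limma-voom called 4 genes, the length offset 1 and thinned libraries 5. With TGF-β in siRNA cells 0 members passed downward with the length offset or with only the 2 groups in the fit, where 1548 genes were called. The cause of these shifts was not tested. Leaving out each library gave 1871 to 3597 genes for TGF-β in scramble cells (the fewest without vehicle + scramble replicate 1), 1589 to 2884 for TGF-β in siRNA cells (the fewest without vehicle + H1.0 siRNA replicate 1) and 0 to 12 for the difference. Members called, with Mcam counted in as a description, ranged over 2 to 3 upward and 0 to 2 downward with TGF-β in scramble cells, 2 to 3 and 0 to 1 in siRNA cells, and 1 to 4 downward with the siRNA in vehicle. No alternative run here reversed the direction of a call. Library depth of 19.9 M to 36.3 M estimated reads limits scarce members such as Cdh13 and Mcam in vehicle.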
